A study of Mus musculus with 48 samples.

Results

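The J-proximal stretch of the mouse Vκ region is the part of the immunoglobulin kappa light chain locus whose V segments lie closest to the Jκ segments. Its members here are the recombination junctions whose prey position fell on chromosome 6 between 69604501 and 70654171 (mm9), on either strand, in the 12 libraries that used a Jκ bait. By this rule 265637 junctions were members, of 508158 in the whole Vκ region (67505630 to 70654171) and 568001 in the 12 libraries. The stretch is 1.05 Mb of a 3.15 Mb region and ends 18.4 kb before Jκ1, and the annotation places 41 Vκ genes in it.

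V(D)J recombination joins a V segment to a J segment after RAG, the recombinase made of RAG1 and RAG2, cuts both at recombination signal sequences (RSSs). An RSS consists of a conserved heptamer next to the coding end, a spacer and a nonamer, and at the kappa locus a V segment carries the short spacer and a J segment the long one. V genes that point the same way as Jκ join by deletion of the DNA between them, and V genes that point the other way join by inversion, so the strand of the prey tells the kind of joining. In loop extrusion, cohesin reels chromatin past RAG, and Wapl, the factor that releases cohesin from chromatin, limits how far a loop grows.

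LAM-HTGTS, a linear-amplification assay that reads junctions out from a fixed bait, was applied to genomic DNA, and the bait end lay most often at the start of Jκ5. One group of 4 libraries came from a v-Abl transformed 129sv pro-B line, Emu-Bcl2 and RAG2 deficient, infected with a RAG2 retrovirus. Its titles call the cells cycling, while its labels also list 3 uM STI-571, an Abl kinase inhibitor that arrests such lines, for 4 days. The 3 marrow libraries came from bone marrow pre-B cells of WT 129sv mice. A protocol line shared by all samples lists the inhibitor for them too. A v-Abl transformed B6 pro-B line that is RAG1 deficient and Single Igh, and carries Wapl-degron, OsTIR1 and Emu-Bcl2, was infected with RAG1/2 retrovirus and gave the other libraries. Of these, 3 had the inhibitor for 4 days and are called untreated, and 2 had it for 1 day and then together with 150 μM IAA (auxin) and 2 mg/mL Dox for 3 days. No measurement of the Wapl protein itself is part of these lists. The Wapl-degron line is of another strain than the mice and the other line, and junction lists hold no expression values, so the named cell types could not be checked against marker genes. Nothing in the labels says whether replicates were separate cultures or mice, so p-values measure only the spread between these libraries.

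Every one of the 40 Vκ genes of the stretch at which junctions were found had an RSS at its coding end with a heptamer starting in CAC, a 12-base spacer, and at least 12 of 16 bases equal to CACAGTG and ACAAAAACC. Over both strands of the whole stretch, 0.00657% of windows met that rule, in 138 places. At each segment the best match over several nearby offsets and spacer lengths was taken, so the percent of single windows is not a like background. The 8 Igkv3 segments other than Igkv3-9 shared 1 identical 28-base RSS that matched at all 16 bases. Of these, the 3 nearest to Jκ and the 2 most used in marrow are shown, from 12 coding bases into the nonamer, 5′ to 3′, with heptamer and nonamer in capitals, read from the NCBIM37 genome, which is mm9.

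Igkv3-1: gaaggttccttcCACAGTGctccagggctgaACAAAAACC
Igkv3-2: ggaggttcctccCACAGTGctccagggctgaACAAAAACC
Igkv3-3: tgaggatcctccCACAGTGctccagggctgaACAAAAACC
Igkv3-7: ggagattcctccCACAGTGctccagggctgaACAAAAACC
Igkv3-12: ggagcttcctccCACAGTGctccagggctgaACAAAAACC

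These lie on the plus strand at chr6:70654160-70654199, chr6:70649050-70649089, chr6:70637517-70637556, chr6:70558019-70558058 and chr6:70468832-70468871, each running from the end of the coding exon into the flank. Inversional genes on the minus strand that were among the most used of at least 1 group are shown next.

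Igkv4-50: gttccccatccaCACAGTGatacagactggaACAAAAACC
Igkv12-44: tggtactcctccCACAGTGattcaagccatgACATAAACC
Igkv6-32: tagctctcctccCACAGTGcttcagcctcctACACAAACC
Igkv8-24: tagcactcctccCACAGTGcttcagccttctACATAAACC

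They were read at chr6:69650733-69650772, chr6:69764597-69764636, chr6:70023990-70024029 and chr6:70166824-70166863. The last pair had no annotated Vκ gene end. The position 69994109 was the most used of that kind, and 70653432 had the largest rise after IAA/Dox, with 11 of 16 bases matching and an 11-base spacer. The stretch at 70653432 does not meet the rule given above. Its capitals mark only the best match of the search, which returns a partial match even where no RSS is present.

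position 69994109: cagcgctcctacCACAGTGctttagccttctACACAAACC
position 70653432: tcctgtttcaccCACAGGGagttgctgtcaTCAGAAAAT

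Both are read on the minus strand, at chr6:69994078-69994117 and chr6:70653405-70653443, and neither overlaps an annotated Vκ gene of the type used here (IG_V_gene). Overlap with pseudogenes and other gene types was not searched.

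Depth differed widely. Junctions in the Vκ region numbered 584 to 3973 in the v-Abl libraries labelled cycling, 19894 to 30742 in marrow, 117353 to 136877 in the untreated Wapl-degron libraries and 16607 and 25540 after IAA/Dox. In replicates 1 to 4 of the group labelled cycling, 69.4%, 30.0%, 72.5% and 31.4% of all junctions lay in the Vκ region, against 95.1% to 95.4% in marrow. Replicates 2 and 4 are therefore scaled unlike 1 and 3 wherever values are given per junction of any kind. Read names placed the libraries in 3 sequencing runs: the cycling group alone in run 1, marrow alone in run 2 and both Wapl-degron groups in run 3, so run and group cannot be told apart except between the Wapl-degron groups. Prey alignments had medians of 111 to 132 bp in marrow and 57 to 63 bp elsewhere. Replicates 2 and 4 of the cycling group, the shallowest libraries, did not differ beyond sampling noise at the 0.05 level (chi-square p = 0.108 over 20 segments), while all other replicate pairs of that group did. Distinct joints are those that differ in prey position, strand, bait end or the length inserted or overlapping between bait and prey. Of the distinct joints of replicate 2, 38.5% were also in replicate 4, 72.8% in replicate 1 and 66.6% in replicate 3. Of those of replicate 4, 79.4% were in replicate 3 and 63.2% in replicate 1. Replicates 1 and 3 were deeper and held 945 and 1057 distinct joints, against 356 and 378 in replicates 2 and 4. The part of depth in this sharing was not tested. Replicates 2 and 4 are kept as separate samples here, and counting them as 1 sample gave a cycling mean of 41.9% ± 2.61 (SD, n = 3) for the J-proximal share, against 41.1% ± 2.67 (SD, n = 4). Joining replicate 1 with 2 and 3 with 4 gave 41.1% ± 0.939 (SD, n = 2).

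The J-proximal stretch took the largest share of Vκ joining in the untreated Wapl-degron cells. In the untreated cells it held 56.8%, 56.0% and 54.9% of Vκ junctions (mean 55.9% ± 0.945, SD, n = 3). After IAA/Dox it held 38.2% and 36.6% (mean 37.4% ± 1.12, SD, n = 2). In marrow the shares were 42.1%, 44.3% and 43.0% (mean 43.1% ± 1.09, SD, n = 3), and in the cycling group 43.9%, 39.7%, 42.8% and 38.1%. The untreated libraries did not overlap with any other group, while the cycling libraries overlapped with marrow and with IAA/Dox. For replicate 2 of the cycling group, with 584 junctions, the 95% Wilson interval of its share was 35.8% to 43.7%. Such intervals cover counting error only, since reads carry no molecular identifiers.

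Junctions that repeat the same distinct joint were common and unequal between groups. Different libraries also shared many distinct joints, so these are not all shown to be repeated reads of 1 event. The percent of distinct joints was highest in cycling replicates 2 and 4, the shallowest libraries. Distinct joints made up 6.48% to 6.83% of J-proximal junctions in the untreated libraries, 16.7% and 20.8% after IAA/Dox, 10.1% to 13.8% in marrow and 23.2% to 56.9% in the cycling group. With each distinct joint counted once per library, the J-proximal share was 46.0% ± 0.603 in untreated cells (SD, n = 3), 37.5% ± 1.12 after IAA/Dox (SD, n = 2), 37.9% ± 1.05 in marrow (SD, n = 3) and 37.0% ± 0.207 in the cycling group (SD, n = 4). The untreated libraries then still lay above all others, and the difference of IAA/Dox from untreated cells was -8.44 points. Untreated cells exceeded marrow by 8.12 points and the cycling group by 8.95 points on that count.

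Counting every junction, the difference between IAA/Dox and untreated cells was -18.5 percentage points, and the exact two-sided permutation test gave p = 0.2, the smallest that 2 against 3 libraries can give. Untreated Wapl-degron libraries exceeded marrow by 12.8 points (exact permutation p = 0.1, the smallest for 3 against 3) and the cycling group by 14.8 points (exact permutation p = 0.0571, the smallest for 4 against 3). The cycling group differed from marrow by -1.98 points (exact permutation p = 0.343), or -19.7 points as a share of all junctions (exact permutation p = 0.0571). After Benjamini-Hochberg adjustment over the 20 share tests of this kind no p-value was below 0.286, so none passed 0.05. Shares add up to the whole region: the distal part of the region, of equal length, held 20.9% ± 0.966 (SD, n = 3) in untreated cells and 40.8% ± 0.918 (SD, n = 2) after IAA/Dox, and the middle part 23.2% ± 1.90 (SD, n = 3) and 21.8% ± 2.04 (SD, n = 2).

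**Figure D1:**
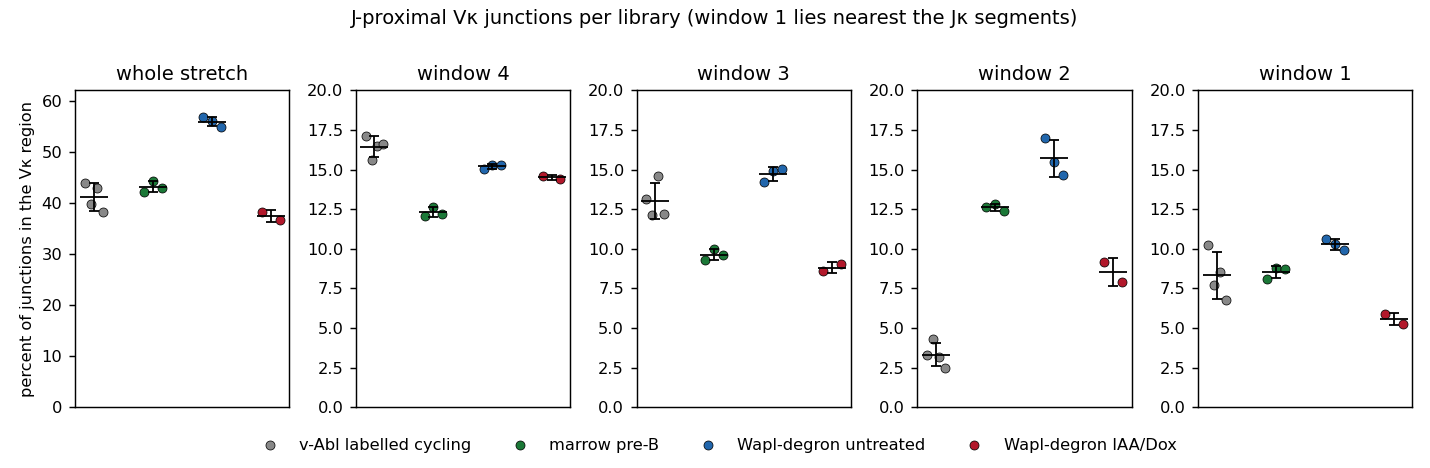
Percent of Vκ junctions (y axis) in the whole J-proximal stretch and in each of its 4 equal windows of 262.4 kb (window 1 lies nearest Jκ), for every library (points) of the 4 groups, with mean and SD as bars. Window 4, farthest from Jκ, was at 14.5% after IAA/Dox against 15.2% in untreated cells, while windows 1 to 3 were lower after IAA/Dox; window 2 was 3.33% in the cycling group.

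Within the stretch the loss of share after IAA/Dox was uneven. Cut into 4 windows of 262.4 kb, the window next to Jκ held 10.3% ± 0.332 of Vκ junctions in untreated cells (SD, n = 3) and 5.57% ± 0.408 after IAA/Dox (SD, n = 2). The next window held 15.7% ± 1.19 and 8.52% ± 0.881, and the third 14.7% ± 0.450 and 8.82% ± 0.332. The window farthest from Jκ held 15.2% ± 0.164 and 14.5% ± 0.165. All 4 windows were separate between the 2 groups, by a small margin in the farthest one. As a share of J-proximal junctions, the window next to Jκ held 18.4% ± 0.283 in untreated cells and 14.9% ± 0.645 after IAA/Dox, a difference of -3.51 points (exact permutation p = 0.2). With distinct joints counted once that difference was -0.965 points, and the libraries overlapped (18.8% to 19.3% after IAA/Dox, 19.2% to 20.8% in untreated cells).

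The cycling group had a gap in the same map. Its second window from Jκ held 2.50% to 4.28% of Vκ junctions over 4 libraries, against 12.4% to 12.8% in marrow and 14.6% to 17.0% in untreated Wapl-degron cells. Its farthest window held 15.6% to 17.1%, above the 12.1% to 12.7% of marrow. The window next to Jκ overlapped between the cycling group (6.77% to 10.3%) and marrow (8.08% to 8.80%). These window shares of Vκ junctions are descriptions with no test.

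Inversional joining dominated in every group. Minus-strand prey, which marks deletional joining to the 13 plus-strand genes, made up 22.9% ± 0.759 of J-proximal junctions in untreated Wapl-degron cells (SD, n = 3), 24.6% ± 0.830 in marrow (SD, n = 3) and 23.0% ± 1.93 in the cycling group (SD, n = 4). After IAA/Dox it was 17.8% and 16.9%, below every other library (-5.51 points against untreated, exact permutation p = 0.2). With distinct joints counted once the share was 20.8% and 21.5% after IAA/Dox and 25.4% ± 1.06 in untreated cells. The treated libraries then overlapped with the cycling group, whose lowest library was at 20.9%. Deletional junctions lay mainly next to Jκ: in untreated cells 97.1% ± 0.281 of junctions in the nearest window were on the minus strand, 17.3% ± 0.679 in the second, and 0.396% ± 0.0988 and 0.274% ± 0.0931 in the farther ones. Of all Vκ junctions, deletional J-proximal joins went from 12.8% ± 0.638 to 6.50% ± 0.445 between untreated and IAA/Dox, and inversional ones from 43.1% ± 0.321 to 30.9% ± 0.676.

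**Figure D2:**
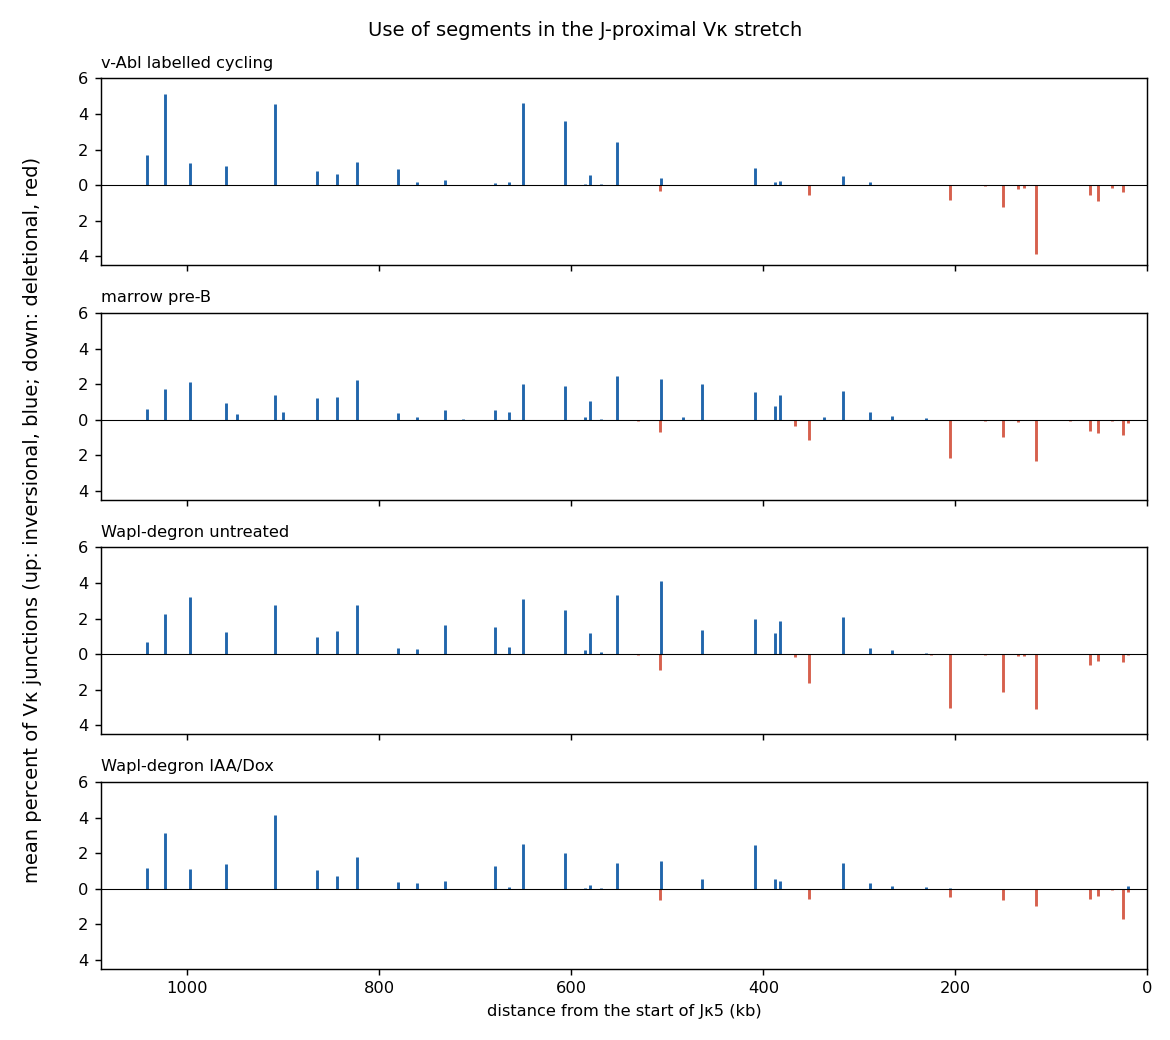
Mean percent of Vκ junctions at each segment of the J-proximal stretch (y axis; inversional joins up in blue, deletional joins down in red) against distance from the start of Jκ5 in kb, 1 panel per group. Deletional joins lie mostly between Igkv3-12 (205 kb) and Jκ5, and in the cycling panel no line between Igkv8-27 (2.44%) and Igkv3-7 (3.88%) is above 1.20%.

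Junctions were gathered into segments, runs of junction positions at most 20 bp apart. Each Vκ gene gave its name to the segment with most junctions among those inside it or within 20 bp of it. In the stretch 67 segments had at least 10 junctions, 40 of them at a gene, and those 40 held 92.7% of its junctions. The gene Igkv12-47 had none. A Vκ gene encodes the variable part of a kappa light chain, and the number after the hyphen grows with distance from the J side. Usage per segment was compared with limma voom on counts per Vκ junction, fitted on all Vκ segments, with Benjamini-Hochberg adjustment over all of them. A call also required the fitted direction to be that of the group means. A segment was tested when the groups compared had at least 10 junctions together, so a single deep group could bring it in. Limma pools the spread between libraries over the segments, so its very small p-values do not measure the spread at a single segment alone. The comparisons of marrow with each line share the marrow libraries, and 3 comparisons share the untreated libraries, so they are not independent of each other.

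After IAA/Dox most J-proximal genes lost share, and the 3 genes closest to Jκ gained it. Of 63 J-proximal segments tested, 29 fell and 8 rose relative to all Vκ junctions. Over the 157 Vκ segments tested the background was 50.3% called, 29.9% lower and 20.4% higher. In the rest of the region 18 of 94 segments fell and 24 rose. The median log2 ratio of the J-proximal segments was -0.65, against -0.16 over all segments tested. By window, 3 of the 10 genes next to Jκ rose and 4 fell, with a median log2 ratio of -0.45. Further, 9 of 11 genes fell and none of the 11 rose in the second window from Jκ, with a median log2 ratio of -1.36. In the third, 8 of 10 fell, none rose and the median was -1.56. In the farthest, 2 of 6 fell and 2 rose, with a median of 0.14. A quasi-binomial model in place of limma voom called 16 J-proximal segments in place of 37, with 10 segments that gave no estimate because a group stood at 0. Igkv8-24, Igkv8-27, Igkv8-18, Igkv3-1, Igkv3-3 and Igkv4-50, described next, were among those it did not call (adjusted p 0.0512 to 0.125). Without IAA/Dox replicate 2, limma voom called 21, and without replicate 1 it called 25. In such fits the lone treated library is assumed to vary as the untreated ones do, here and for the genes described next.

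Igkv3-12, a plus-strand gene 205 kb from Jκ5, took 3.13%, 3.00% and 2.99% of Vκ junctions in the untreated libraries and 0.524% and 0.395% after IAA/Dox (log2 ratio -2.76, SE 0.18, limma adjusted p = 1.87e-05). The groups were far apart, with means of 3.04% and 0.460%. Results under the alternatives are not given for Igkv3-12 in this comparison. Igkv3-7, another plus-strand gene, took 3.09%, 3.01% and 3.05% in untreated cells and 1.23% and 0.760% after IAA/Dox (log2 ratio -1.71, SE 0.18, limma adjusted p = 0.000103). Both carry the same RSS shown above. With distinct joints counted once, the log2 ratio of Igkv3-7 was -0.79 and still called.

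Among inversional genes, Igkv8-24 was the most used in untreated cells, with 4.65%, 3.99% and 3.73%, and took 1.76% and 1.32% after IAA/Dox (log2 ratio -1.45, SE 0.18, limma adjusted p = 0.00024). Igkv5-48, close to the far end at 997 kb, took 3.22%, 3.23% and 3.15% in untreated cells and 1.05% and 1.15% after IAA/Dox, with a log2 ratio of -1.53. Igkv8-27 went from a mean of 3.33% ± 0.241 (SD, n = 3) to 1.45% ± 0.0136 (SD, n = 2). With distinct joints counted once the falls were smaller and still called, with log2 ratios of -0.59 for Igkv8-24, -0.69 for Igkv5-48 and -0.57 for Igkv8-27. Igkv6-32 and Igkv8-30 had small falls, with log2 ratios of -0.29 and -0.32 and limma adjusted p of 0.0453 and 0.0416. The call for Igkv8-30 was lost on leaving out any 1 of the 5 libraries (adjusted p 0.0529 to 0.254) and that for Igkv6-32 on leaving out any but untreated replicate 3 (0.0724 to 0.242). With distinct joints counted once the log2 ratios were -0.0784 for Igkv8-30 and 0.00643 for Igkv6-32, and neither was called (adjusted p = 0.567 and 0.956).

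Some rarely used plus-strand sites were also lower after IAA/Dox. Igkv8-18 had 0.190%, 0.160% and 0.182% in untreated libraries and 0.0181% and 0.0117% after IAA/Dox, a log2 ratio of -3.43 (SE 0.51, limma adjusted p = 0.000739), or -2.44 with distinct joints counted once. Igkv8-26 had 68 junctions in untreated cells and 0 of 42147 after IAA/Dox, which allows a share of up to 0.00712% over the group and makes the gene at least 2.49-fold lower. The position 70448357, with 71 and 0 junctions and no gene end, was likewise at least 2.63-fold lower. Both calls were lost without IAA/Dox replicate 1 (adjusted p = 0.058 and 0.0603) or replicate 2 (0.0912 for each).

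The opposite was found at the J-proximal edge. Igkv3-2, 24.8 kb from Jκ5, took 0.479%, 0.428% and 0.372% in untreated libraries and 1.66% and 1.78% after IAA/Dox, a log2 ratio of 2.02 (SE 0.16, limma adjusted p = 3.29e-05). Igkv3-1, the last gene before Jκ, took 0.0570%, 0.0512% and 0.0247%, and 0.138% and 0.251% after IAA/Dox, with a log2 ratio of 2.20 (SE 0.44). Igkv3-3 took 0.0183%, 0.0142% and 0.0136%, and 0.0723% and 0.0352% after IAA/Dox, with a log2 ratio of 1.68 (SE 0.44). Treated and untreated libraries did not overlap at any of these genes. The limma adjusted p was 0.0037 for Igkv3-1 and 0.0125 for Igkv3-3. It was 0.0879 for Igkv3-1 without IAA/Dox replicate 2, 0.129 for Igkv3-3 without replicate 1 and 0.0546 for Igkv3-3 with distinct junctions counted once. The log2 ratios with distinct junctions were 1.09 for Igkv3-2, 1.56 for Igkv3-1 and 0.80 for Igkv3-3.

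The largest rise of the stretch was at a position without an annotated Vκ gene, 70653432, which joins by inversion. It lies 20.4 kb from Jκ5, beyond Igkv3-1 at 19.7 kb. It took 0.000731%, 0.00236% and 0.00511% of Vκ junctions in the untreated libraries and 0.151% and 0.153% after IAA/Dox. The treated libraries stood close together and far above the untreated ones (log2 ratio 5.95, SE 0.58, limma adjusted p = 6.87e-05). That ratio was 5.31 without untreated replicate 1 and 3.50 with distinct joints counted once. It had no junction in the cycling group or in marrow. At the far end, Igkv12-44 rose from 2.74% ± 0.134 (SD, n = 3) to 4.12% ± 0.0937 (SD, n = 2), with a log2 ratio of 0.59. Igkv4-50 rose from 2.28% ± 0.179 to 3.13% ± 0.235, with a log2 ratio of 0.47 and a limma adjusted p of 0.181 without IAA/Dox replicate 2. Igkv8-21 had 2.05%, 1.96% and 1.89%, and 2.64% and 2.26% after IAA/Dox (limma adjusted p = 0.0653). Over the 37 genes tested, which share the same libraries, Spearman's rho between log2 ratio and distance from Jκ5 was -0.0178.

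**Figure D3:**
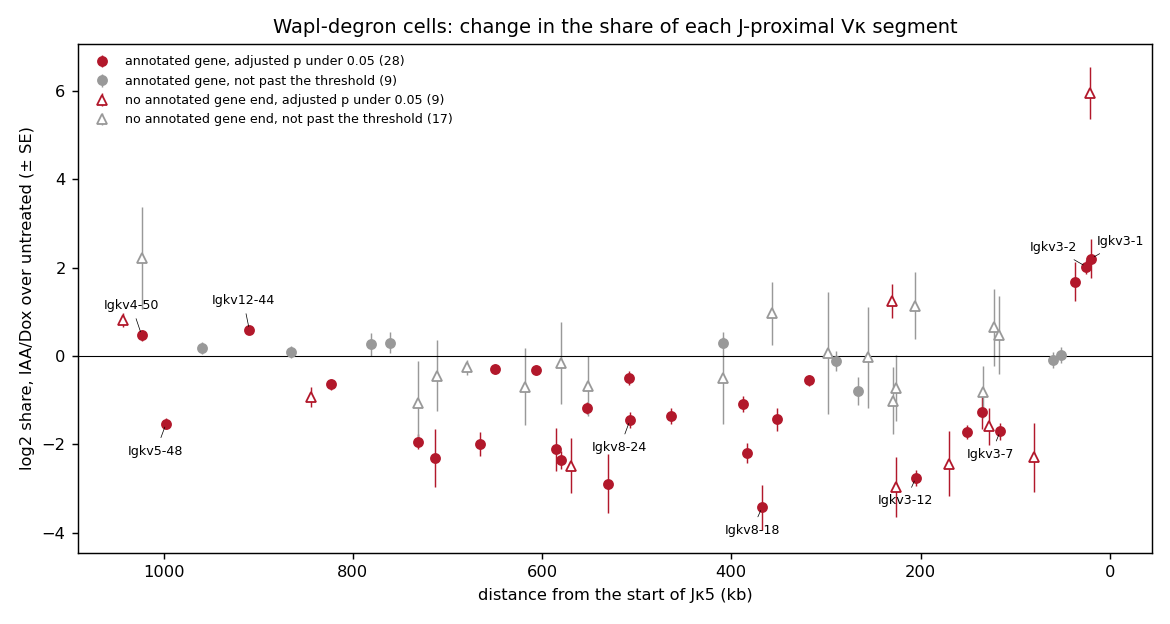
Log2 ratio of the share of Vκ junctions, IAA/Dox over untreated Wapl-degron cells (y axis, with SE), for the 63 J-proximal segments tested against distance from the start of Jκ5 in kb; red marks an adjusted p under 0.05. Igkv3-1, Igkv3-2 and a position without a gene end rise at the Jκ edge, and Igkv3-12 (-2.76) and Igkv8-18 (-3.43) lie among the falls.

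Of the 40 J-proximal genes, 19 were used more and 11 less in untreated Wapl-degron cells than in marrow pre-B cells. The lower genes lay mainly among those with an identical or near copy in the Vκ region, as given below. Of 67 segments tested 25 were higher and 14 lower, against a background over 167 Vκ segments of 53.9% called, 19.8% higher and 34.1% lower. Elsewhere in the region 8 of 100 segments were higher and 43 lower. The median log2 ratio was 0.37 in the stretch and -0.10 over all segments tested. The Wapl-degron line differs from marrow in strain, transformation, RAG source and sequencing run, and these cannot be told apart.

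Igkv8-24 took 2.18%, 2.22% and 2.53% in marrow, below all 3 untreated Wapl-degron libraries (log2 ratio 0.83, SE 0.11, limma adjusted p = 0.000205). Igkv3-12 had 2.02%, 2.31% and 2.20% in marrow and was 1.40-fold higher in the mean of untreated cells. Igkv3-7, Igkv5-39 and Igkv8-27, also among the 5 most used J-proximal segments of marrow, were 1.31-fold, 1.24-fold and 1.37-fold higher in untreated cells, and Igkv6-32 and Igkv5-48, among the 5 of untreated cells, had log2 ratios of 0.63 and 0.58. Each of these differences passed the limma threshold with no overlap of libraries, that of Igkv8-27 not under the quasi-binomial model (adjusted p = 0.0638). With distinct junctions counted once, Igkv3-12 (adjusted p = 0.291), Igkv5-39 (0.373) and Igkv6-32 (0.0788) no longer passed it. Igkv5-39 also did not pass without marrow replicate 1 (adjusted p = 0.05).

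The 3 genes nearest Jκ went the other way, as they were less used in the untreated line than in marrow. Of the 10 genes in the window next to Jκ, 3 were higher and 4 lower, with a median log2 ratio of -0.15. Igkv3-2 took 0.839%, 0.882% and 0.852% in marrow, 2.01-fold the mean in untreated cells (log2 ratio -1.02, SE 0.14, limma adjusted p = 0.000191). Igkv3-1 took 0.146%, 0.166% and 0.167% (log2 ratio -1.93), and Igkv3-3 took 0.0553%, 0.0618% and 0.0583% (log2 ratio -1.95). With distinct joints counted once the log2 ratios were -0.43 for Igkv3-2, -1.25 for Igkv3-1 and -0.79 for Igkv3-3, all still called. After IAA/Dox the shares of Igkv3-2 (mean 1.72%) and Igkv3-1 (mean 0.195%) stood beside marrow means of 0.858% and 0.160%. IAA/Dox and marrow were not compared by a test. The small positions 70448357, 70447676 and 70122296 had 71, 33 and 43 junctions in untreated cells and 1, 0 and 1 in marrow. Their fitted log2 ratios of 2.71, 2.16 and 2.00 depend at such counts on the prior count. These positions reached the minimum of 10 junctions through the untreated group alone. That group had 381245 Vκ junctions, against 76347 in marrow, so their place among the largest rises follows in part from the filter. The 95% counting interval of the pooled ratio was 2.47 to 569 for the first and 1.47 to 348 for the last, and 70447676 was at least 2.19-fold higher. A counting interval takes each junction as independent and leaves out the spread between libraries. Most junctions of these groups repeat a distinct joint, so it may be too narrow, here and below. The call for 70122296 was lost without marrow replicate 1 (adjusted p = 0.0744) or 2 (0.0768). Under the quasi-binomial model neither 70448357 (adjusted p = 0.0744) nor 70122296 (0.133) was called.

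A few sites were found almost entirely in marrow. Igkv5-43 had 312 junctions in marrow, 1 in untreated Wapl-degron cells and 0 in the other groups. The pooled ratio of marrow to untreated cells was 1558-fold for it, with a 95% counting interval of 278 to 61732. Igkv5-45 had 241, 3 and 0 junctions in the same order, a pooled ratio of 401-fold with an interval of 136 to 1959. The fitted log2 ratio of untreated cells over marrow was -9.49 for Igkv5-43 and -8.33 for Igkv5-45, and -6.48 and -5.66 with distinct joints counted once, all called. That of Igkv5-45 was -7.60 without untreated replicate 1. The position 70190424 had shares of 0.141%, 0.150% and 0.167% in marrow and a mean of 0.00106% in untreated cells (log2 ratio -7.07, SE 0.60, limma adjusted p = 7.32e-06). That ratio was -6.30 without untreated replicate 2 and -4.95 with distinct joints counted once. For Igkv5-43, Igkv5-45 and Igkv8-16 the last 60 and the last 120 bases of the gene had an identical copy elsewhere in the Vκ region. All 3 were called lower than in marrow in the untreated line and in the cycling group. Reads from such copies cannot be assigned with certainty to 1 of them. Over the last 60 bases, 14 genes had 1 or 2 mismatches to their nearest copy, and 23 had more. In the untreated line 6 of these 14 were lower than in marrow and 5 higher, against 2 lower and 14 higher of the 23. In the cycling group 7 of the 14 were lower and none higher, against 11 lower and 6 higher of the 23. Igkv3-3 had 2 mismatches, and Igkv3-1 and Igkv3-2 had 5 each. Marrow prey alignments were the longest of the data, and the part of alignment length in these counts was not tested.

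Compared with marrow, the v-Abl libraries labelled cycling concentrated J-proximal joining on fewer genes. Their 5 most used segments held 48.0% to 55.6% of J-proximal junctions, against 25.6% to 28.1% in marrow, and 28 to 33 of the genes had a junction, against all 40 in each marrow library at much greater depth. Of 50 J-proximal segments tested, 24 were lower and 9 higher than in marrow, beside 41.3% lower, 18.3% higher and 59.5% called among all 126 Vκ segments. Per junction of any kind in place of per Vκ junction the split was 29 lower and 1 higher, since that scaling moves the median of all segments from -0.56 to -1.61. The quasi-binomial model called 18 segments.

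In the second window from Jκ, 11 of 12 genes were lower in the cycling group and none of the 12 was higher, with a median log2 ratio of -1.75. Igkv6-23 took 2.00%, 2.09% and 1.94% in marrow, while cycling replicate 1 had 0.0943% and the other cycling libraries none. With 3 junctions of 8419 against 1541, the pooled ratio was 56.6-fold, with a 95% counting interval of 19.3 to 275. Its fitted log2 ratio of -5.31 was -4.47 without cycling replicate 3 and -3.46 with distinct joints counted once, and it was called in each case. Igkv8-24 took 0.283%, 0.342%, 0.302% and 0.589% in the cycling group, 6.09-fold below the marrow mean (log2 ratio -2.69, SE 0.39, limma adjusted p = 9.22e-11), with a log2 ratio of -1.42 for distinct joints. Igkv3-12 was also lower, at 0.295% to 1.48% (mean 0.841% ± 0.494, SD, n = 4), with a wide spread between libraries. Igkv5-39 was 1.72-fold lower, and both calls were lost with distinct junctions counted once (adjusted p = 0.123 and 0.156). Next to Jκ, Igkv3-2 was 2.21-fold lower than in marrow and Igkv3-1 had 0 of 8419 junctions, which allows a share of up to 0.0356% over the group and makes it at least 4.48-fold lower. Igkv3-3 had means of 0.141% ± 0.0829 (SD, n = 4) in the cycling group and 0.0585% in marrow, and the libraries overlapped (log2 ratio 1.01, limma adjusted p = 0.13). That log2 ratio ranged from 0.73 to 1.96 over the libraries left out. Igkv5-43 and Igkv5-45 were at least 11.7-fold and 9.25-fold lower by the same bound.

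The genes that rose in the cycling group lay mostly in the farther part. Igkv4-50 took 5.03%, 6.16%, 4.66% and 4.71% of Vκ junctions, against 1.59%, 1.83% and 1.73% in marrow (log2 ratio 1.52, SE 0.16, limma adjusted p = 4.57e-19). Igkv12-44 took 3.64% to 5.74%, 3.22-fold the marrow mean, and the position 69631405 took 1.03% to 2.29%, 2.86-fold the marrow mean. Igkv6-32 was 2.31-fold higher, and none of these 4 passed the threshold per junction of any kind (adjusted p 0.175 to 0.719). Igkv8-30 was 1.88-fold and Igkv3-7 1.67-fold higher per Vκ junction, and per junction of any kind the log2 ratios were -0.0698 and -0.25. Igkv8-27 overlapped between the groups, at 2.44% ± 0.511 (SD, n = 4) and 2.43% ± 0.193 (SD, n = 3).

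**Figure D4:**
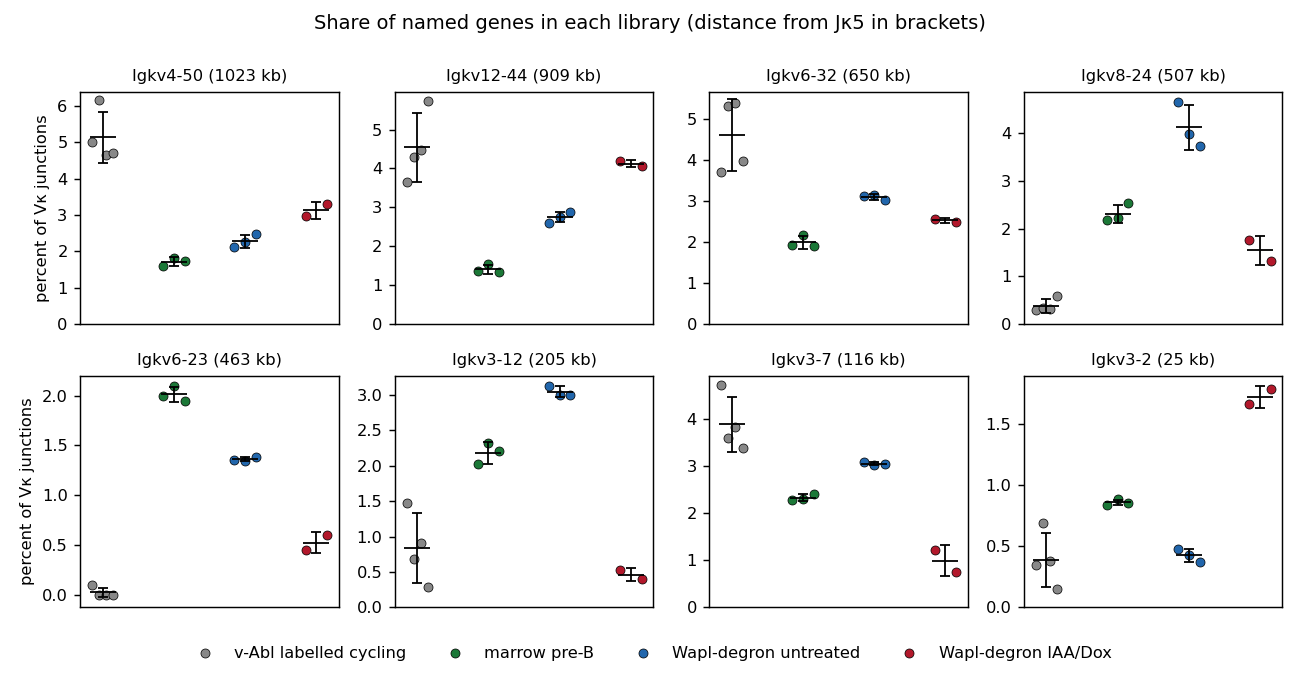
Percent of Vκ junctions (y axis, a separate scale per panel) at 8 named genes in every library (points) of the 4 groups, with mean and SD as bars and the distance from Jκ5 above each panel. Igkv6-23 and Igkv8-24 are low in the cycling group, Igkv3-12 and Igkv3-7 are low after IAA/Dox, and Igkv3-2 is highest after IAA/Dox.

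Between the 2 v-Abl lines, untreated Wapl-degron against cycling, 20 J-proximal segments were higher and 9 lower of 62 tested, beside 21.6% higher, 22.2% lower and 43.8% called among 153 Vκ segments. A further 14 J-proximal segments passed the limma threshold with a sign opposite to that of their group means and were not called. Per junction of any kind the split was 26 higher and 1 lower. The quasi-binomial model called 19. Depths differed most between these groups. On simulated counts the fit made 31 false calls among 120 unchanged segments here, against 1 in each of the other comparisons. These were counted without the condition on direction. Igkv6-23 took 1.35%, 1.35% and 1.38% in untreated Wapl-degron cells, 38.1-fold the pooled cycling share with a counting interval of 13.05 to 185. Its fitted log2 ratio of 4.75 was 3.89 without cycling replicate 3 and 3.33 with distinct joints counted once. Igkv8-24 was 10.9-fold higher and the position 69994109 13.7-fold higher in the untreated line, the first not under the quasi-binomial model (adjusted p = 0.105). Igkv3-3 was 9.18-fold lower, the position 69631405 2.53-fold lower and Igkv12-38 2.70-fold lower, and the last 2 did not pass per junction of any kind (adjusted p = 0.484 and 0.379). The cycling libraries ranged from 0.0252% to 0.220% at Igkv3-3, whose log2 ratio of -3.02 was -3.91 without cycling replicate 3, -2.30 per junction of any kind and -1.29 with distinct joints counted once. With distinct joints the log2 ratios of Igkv8-24 and 69994109 were 1.88 and 2.44, against 3.47 and 3.44. Igkv12-38 was also not called without cycling replicate 1 (adjusted p = 0.0532), under the quasi-binomial model (0.217) or with distinct junctions counted once (0.152). Igkv4-50 was 2.25-fold, Igkv12-44 1.65-fold, Igkv6-32 1.49-fold and Igkv8-30 1.44-fold lower per Vκ junction, and per junction of any kind the log2 ratios became -0.29, 0.16, 0.31 and 0.28. Without cycling replicate 3, Igkv6-32 (adjusted p = 0.104) and Igkv8-30 (0.0848) were not called.

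By family, Igkv3 has only plus-strand genes here and Igkv8 and Igkv6 mostly minus-strand ones. The 9 Igkv3 segments together held 9.79% ± 0.278 of Vκ junctions in untreated Wapl-degron cells (SD, n = 3) and 5.06% ± 0.293 after IAA/Dox (SD, n = 2). In marrow they held 8.06% ± 0.433 and in the cycling group 8.07% ± 1.44. The 9 Igkv8 segments held 15.2% ± 0.437 in untreated cells, 8.11% ± 0.746 after IAA/Dox, 11.2% ± 0.0736 in marrow and 8.17% ± 1.20 in the cycling group. The 4 Igkv12 segments held 5.28% ± 0.222 in untreated cells and 6.96% ± 0.298 after IAA/Dox, 3.96% ± 0.164 in marrow and 7.36% ± 1.15 in the cycling group. Treated and untreated libraries did not overlap for any of these 3 families. The annotated gene model Gm16774 is counted with Igkv3, since RefSeq lists Igkv3-5 among its synonyms.

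Identical signals went with very different use. The 8 genes with the RSS of Igkv3-7 ranged from 0.0154% (Igkv3-3) to 3.05% (Igkv3-7) in untreated cells, 199-fold apart, and from 0.0537% (Igkv3-3) to 1.72% (Igkv3-2) after IAA/Dox. In marrow they ranged from 0.0585% to 2.33%. The 4 Igkv12 genes, which also share 1 RSS, ranged from 0.343% (Igkv12-38) to 2.74% (Igkv12-44) in untreated cells. Of the 40 genes 11 matched at all 16 bases, 9 of them on the plus strand, and 35 carried the heptamer CACAGTG.

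Of the 27 segments not named by a gene, 11 had a CAC heptamer, a 12-base spacer and 12 or more of the 16 bases, among them 8 of the 9 with at least 100 junctions. Among the 27, 2 lay inside or within 20 bp of an annotated Vκ gene. The most used was 69994109, with 1.41%, 1.59% and 1.54% in untreated cells, 1.01% and 1.49% after IAA/Dox, 0.664%, 0.397% and 0.607% in marrow and 0% to 0.220% in the cycling group. Untreated cells exceeded marrow there (log2 ratio 1.52, SE 0.17, limma adjusted p = 5.99e-05), and IAA/Dox and untreated libraries overlapped (limma adjusted p = 0.268).

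Between 89.7% and 96.6% of J-proximal junctions in each library lay within 20 bp of a Vκ coding end in the annotation. The share was lower after IAA/Dox (90.2% ± 0.821, SD, n = 2) than in untreated cells (92.7% ± 0.202, SD, n = 3; exact permutation p = 0.2), and this order turned with distinct junctions counted once. Joints with 1 or more bases inserted between bait and prey made up 15.5% ± 1.20 in untreated cells, 17.4% ± 2.72 after IAA/Dox and 12.99% ± 0.507 in marrow. With distinct joints counted once these shares were 55.7% ± 2.81, 45.1% ± 2.06 and 35.9% ± 1.13, which turned the order of untreated cells and IAA/Dox and widened the difference of untreated cells from marrow from 2.53 to 19.8 points. In the cycling group they made up 17.9% ± 0.733 (SD, n = 4), above all marrow libraries (exact permutation p = 0.0571, adjusted 0.286), and with distinct joints counted once the share was 29.2% ± 2.86 and the difference from marrow -6.69 points. Distinct joints are partly defined by the inserted length, and depth differed widely between groups. How far depth moves these distinct-joint shares was not tested. At genes joined in their own orientation, 72.2% ± 0.514 of marrow joints and 64.3% ± 0.0706 of untreated Wapl-degron joints had lost 1 to 5 bases of the Vκ end. Further, 4.55% and 5.07% had lost more, and 12.8% and 17.8% ended exactly at the coding end. The remaining joints aligned past it. Bait and prey alignments overlapped in 47.0% of J-proximal joints in marrow and 50.5% in untreated cells, and there the bases lost cannot be placed with certainty.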

How the data were processed

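The deposited lists give 1 junction per line with the prey's chromosome, position and strand and the ends of both alignments, per the file headers. These values are positions with no normalization, so the counts were made here by counting lines. Reads were aligned to mm9, and Bowtie2 is named without a version, per the submitters' processing notes; other settings are not given in the sources used here. The remaining 47 deposited files were not used here. Segments were runs of positions at most 20 bp apart, named by Vκ genes of type IG_V_gene in the mm9 annotation. Pseudogenes and other gene types were not used, so a segment without a gene lacks only an entry of that type. Python 3.11.15, R 4.3.3, limma 3.58.1 and exact two-sided permutation tests were used, with library size the number of Vκ junctions, at least 10 junctions per segment and an adjusted p under 0.05. The members and lists were chosen with earlier results of these data known. The condition on direction and the counting of cycling libraries as fewer samples were chosen after seeing the data. Genes were named by rule: the 5 most used J-proximal segments of each group, the 3 largest called changes without overlap in each direction of each comparison, the 3 genes nearest Jκ and the most used segment without a gene. The fit was tested on simulated counts with 8-fold changes, where it recovered 88% to 96.55% of changed segments, depending on the comparison. Recovery of smaller changes was not simulated. For untreated Wapl-degron against cycling cells it made 31 false calls among 120 unchanged segments, against 1 in each other comparison. With a minimum of 100 junctions it made 3 among 83. Those false calls were counted without the condition on direction. Equal replicate numbers did not pair the libraries (correlations of their deviations -0.212 to 0.0647 where 3 pairs exist, 0.341 and 0.0335 for the Wapl-degron groups). A group without junctions at a segment is bounded by 3 counts over the group, and intervals of shares are 95% Wilson intervals. Counting intervals of pooled ratios are binomial intervals on junctions summed over each group, with each junction taken as independent. Alternatives were all junctions as library size, minimums of 1 and 100 junctions, a quasi-binomial model, distinct junctions, a 50 bp gap, shifted boundaries, annotated segments only, a replicate block and each library left out. Sequencing run as a block could not be fitted: it coincides with the groups or is shared by both.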

Additional observations from a re-analysis of the deposited data

Results flagged for a closer look

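In the v-Abl group labelled cycling, 3 values had 1 library standing apart from the other 3 by Dixon's ratio of gap to range, past its 95% critical value. Among the 32 such sets examined, chance alone gives about 1 in 20. The share of J-proximal joints with inserted bases was 18.97% in replicate 2 and 17.4% to 17.6% in the others, with a ratio of 0.8352. Igkv6-23 had 0.0943% in replicate 1 and none in the others, a ratio of 1. Igkv8-18 had 0.0252% in replicate 3 and none in the others, also a ratio of 1. The last 2 rest on 3 junctions and 1 junction.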

How the results depend on the processing

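Depth limits the libraries labelled cycling most, with 8419 Vκ junctions over the group, and the group of 2 treated libraries limits every test of IAA/Dox. Sequencing run as a block, or values within a run, could not be fitted, since run coincides with group in 3 comparisons and is shared by both groups in the other. The share differences between IAA/Dox and untreated cells and between untreated cells and marrow kept their direction for the J-proximal, minus-strand and nearest-window shares under every alternative run. Separation of the libraries was not always kept. With distinct joints counted once, the nearest-window share overlapped in both comparisons. The minus-strand share then overlapped between untreated cells (24.5% to 26.6%) and marrow (25.3% to 27.7%).

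The cycling minus marrow differences turned to 1.62 points for the J-proximal share with the boundary 100 kb farther from Jκ. The nearest-window share turned to -0.761 with distinct joints counted once and -0.764 without cycling replicate 1. The share at coding ends turned to -0.937 without cycling replicate 2, -0.0967 without marrow replicate 1 and -0.418 with cycling replicates 2 and 4 as 1 sample. The insertion share turned to -6.69 with distinct joints. For IAA/Dox minus untreated cells, distinct joints gave 1.45 for coding ends and -10.6 for insertions, and leaving out IAA/Dox replicate 1 gave -0.0852 for insertions. For untreated minus cycling cells, distinct joints gave 1.45 for the minus-strand share and 26.5 for insertions. The minus-strand share was 0.0841 with annotated segments only, 0.199 without untreated replicate 3 and 0.76 without cycling replicate 1, and coding ends gave 0.506 without cycling replicate 2. The cause was not tested for any of these.

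Leaving out 1 library at a time, the cycling minus marrow differences ranged from -2.90 to -0.981 points for the J-proximal share, -2.50 to -0.989 for the minus strand, -0.764 to 1.12 for the nearest window, -0.937 to 0.753 for coding ends and 4.53 to 5.06 for insertions. Untreated minus marrow ranged from 12.3 to 13.4, -2.16 to -1.33, -1.74 to -1.14, -0.671 to -0.271 and 1.84 to 2.92 in the same order. IAA/Dox minus untreated ranged from -19.3 to -17.7, -5.99 to -5.04, -3.96 to -3.05, -3.08 to -1.92 and -0.0852 to 3.77. Untreated minus cycling ranged from 13.8 to 15.7, -0.751 to 0.76, -2.55 to -0.667, -1.18 to 0.506 and -3.05 to -1.97. Calls ranged from 27 to 33, 33 to 42, 21 to 38 and 23 to 29 in the same order of comparisons.

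The quasi-binomial model called 18 segments for cycling against marrow, 16 for IAA/Dox against untreated and 19 for untreated against cycling cells, and gave no estimate for 9, 10 and 21 segments. Among named genes, the log2 ratio of cycling over marrow per junction of any kind was -0.25 for Igkv3-7, -0.0698 for Igkv8-30 and -0.89 for Igkv8-27, and -0.0128 to 0.152 for Igkv8-27 over the libraries left out, lowest without cycling replicate 3. That of IAA/Dox over untreated was 0.00643 for Igkv6-32 with distinct joints. That of untreated over cycling cells per junction of any kind was 0.31 for Igkv6-32, 0.48 for Igkv3-7, 0.16 for Igkv12-44 and 0.28 for Igkv8-30. It was -0.094 for Igkv8-27 with distinct joints, and over the libraries left out it ranged from -0.0193 (without cycling replicate 4) to 0.336 for Igkv3-2 and from -0.038 (without cycling replicate 3) to 0.805 for Igkv3-1.

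With the replicate number as a block, limma called 28 segments for cycling against marrow, 42 for untreated against marrow, 36 for IAA/Dox against untreated and 23 for untreated against cycling cells. Equal numbers did not pair the libraries, and the block turned the log2 ratio of Igkv3-2 in the last comparison to -0.0534.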
